A study of Homo sapiens with 92 samples.

Results

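The 8 genes described here are factors of the early eye and the long genes that hold or flank them: OTX2, PAX6, MAB21L1, MAB21L2 and MITF, with ELP4, NBEA and LRBA. They were taken by gene name from the count table of every library, and all 8 were found among the 48905 genes kept. They were named with the comparison of dTAGV-1 with DMSO in view, so for them that comparison is a description: no p-value is given, and counts of members past the threshold stand only beside the share of all genes and support nothing. Test results are given for other comparisons: the course of time in DMSO, the cell types, and other genes. The DMSO libraries are part of the contrast with dTAGV-1, so tests of the members in them are not free of that choice.

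The eye field is the patch of the early neural plate that becomes the eyes, and it is set up by a small network of transcription factors. PAX6 is a paired-box and homeodomain factor at the head of that network, OTX2 is a homeodomain factor needed for the forebrain and the retinal pigment epithelium, and MITF is the basic helix-loop-helix factor of pigment cells. MAB21L1 and MAB21L2 are related proteins that lens, retina and iris need to form. The other genes have different roles: ELP4 is a subunit of the Elongator complex that modifies tRNA, and its introns carry distant enhancers of PAX6, while NBEA and LRBA are large BEACH-domain proteins of vesicle traffic. Cohesin loops, which NIPBL helps to form, are one way in which distant enhancers are brought near such promoters.

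New RNA was measured by SLAM-seq, in which cells take up 4-thiouridine (4sU) and the labelled bases are read as T-to-C conversions. Cells carried mGreenLantern-P2A-FKBP12(F36V)-NIPBL in every group, controls included: the NIPBL protein is fused to a degron that dTAGV-1 sends to destruction, and DMSO is the vehicle. NIPBL RNA therefore does not report the depletion. The RPE-1 cells, a human retinal pigment epithelium line immortalised with hTERT, were a single clone (1 clone, named NIPBL-D7) and were synchronised with thymidine and then with nocodazole at 20 ng/ml. 4sU was given at 100 µM.

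In the mitosis series DMSO or dTAGV-1 was present during 120 min of nocodazole and from then on. Its libraries with 15 min of 4sU number 3 in DMSO and 4 in dTAGV-1 for 0 min after release. For 30 min there are 3 per arm, for 60 and for 90 min 4 per arm, and for 120 min 4 in DMSO and 3 in dTAGV-1. The hours 4, 6 and 8 have 2 per arm. For the release series the labels state only 30, 60, 90 or 120 min of DMSO or dTAGV-1, and each time has 3 libraries per arm. Both series also have 3 and 3 libraries at 120 min with 120 min of 4sU, called the long label here. Cardiomyocytes and neurons differentiated from WTC11 stem cells, treated for 4 h and labelled for 120 min, have 2 and 2 libraries each; their cell line label reads hTERT RPE-1, against their titles and growth protocol, and they were grouped by title. Nothing says that libraries of a group came from separate cultures, so p-values measure the spread between these libraries, which may be technical.

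Libraries held 0.419 to 35.4 M converted reads (M for 1e6) among 10.7 to 114 M reads in all. Values below are converted reads per 1e6 converted reads after TMM scaling (CPM), and the 0 to 120 min libraries, the 4 to 8 h libraries, the release series, the long label and the differentiated cells were each scaled on their own. Read counts of the members set the precision. In RPE-1 with 15 min of 4sU, OTX2 had 8 to 374 converted reads per library, PAX6 12 to 409, MAB21L1 6 to 246 and MAB21L2 15 to 249. MITF had 62 to 2064, ELP4 25 to 477, NBEA 54 to 2265 and LRBA 95 to 3963. Converted reads were a small share of all reads of a gene in these libraries. The share was 0.922% to 10.6% for OTX2, 1.33% to 5.21% for MAB21L1, 1.57% to 6.05% for MAB21L2 and 2.31% to 18.85% for NBEA. Every library had 4sU, so the conversions that arise without label were not measured. How much of the lowest values, such as those at 0 min, is new RNA was not tested. The third DMSO library of the mitosis series for 120 min was unlike the rest: 10 genes took 13.5% of its converted reads, and it had only 13 reads of OTX2. In the release series the labels do not say when the drug was added, and the time since mitosis may differ from the time in the label. Across 10445 genes, mean log2 CPM of its DMSO libraries at 30 min correlated at 0.833 with the mitosis series at 30 min. For the mitosis series at 4 h the correlation with these release libraries was 0.979. In 1 common scaling TOP2A, a gene of dividing cells, had 55.6 CPM there against 1010 CPM at 30 min and 65.8 CPM at 4 h of the mitosis series. MITF likewise had 274 CPM there, against 86.1 CPM and 300.3 CPM. The 2 series are therefore described side by side and not by equal times.

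RPE-1 libraries held only some markers of pigment epithelium. Of the 10 markers of that epithelium KRT8, KRT18 and LRAT were highest, while RPE65, RLBP1, RDH5, TYR, TYRP1 and PMEL stayed under 1 CPM. The 10 markers summed to 129 to 238 CPM in the long-label DMSO libraries and to 157 to 381 CPM with dTAGV-1. In DMSO cardiomyocytes KRT8, KRT18 and LRAT were highest too, and the 10 markers summed to 250.5 to 291.6 CPM. The sum therefore does not set RPE-1 apart. The 8 melanocyte markers summed to less than 1 CPM in each of these libraries. The 12 cardiomyocyte markers summed to 4148 to 4442 CPM in DMSO cardiomyocytes, and the 12 neuron markers to 2649 to 2795 CPM in DMSO neurons, though TUBB3 stayed under 1 CPM there. The neuron markers summed to 266 to 1658 CPM in the long-label DMSO libraries of RPE-1, with SYT1, MAP2 and SNAP25 highest. DMSO neurons also held 969 to 986 CPM of neural progenitor and glial markers, against 1201 to 1244 CPM in neurons with dTAGV-1, and 229 CPM of melanocyte markers against 120 to 126 CPM. DMSO cardiomyocytes held 696 to 707 CPM of fibroblast and smooth muscle markers, against 444 to 486 CPM with dTAGV-1. Of neural progenitor and glial markers they held 404 to 420.5 CPM, against 309 to 367.5 CPM. Of neuron markers they held 249 to 361 CPM, against 203.5 to 233 CPM. The part of these levels in the results, in neurons or cardiomyocytes, was not tested.

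In hg38, with ends as in the deposited files, OTX2 lies on chromosome 14 at 56799905 to 56810479 on the minus strand, a gene of 10.6 kb. PAX6 lies on chromosome 11 at 31784792 to 31817961 on the minus strand and ELP4 at 31509750 to 31783998 on the plus strand, so that their 3′ ends face each other 793 bases apart in the files; RefSeq ends ELP4 further on and PAX6 earlier than the files, with 1299 bases shared. MAB21L1 on chromosome 13, at 35474182 to 35477209 on the minus strand, is 3.0 kb long and lies inside NBEA, which runs on the plus strand from 34942287 to 35673022 over 730.7 kb. MAB21L2 on chromosome 4, at 150581922 to 150584693 on the plus strand, is 2.8 kb long and lies inside LRBA, which runs on the minus strand from 150264531 to 151015727 over 751.2 kb. MITF covers 228.9 kb of chromosome 3, at 69739435 to 69968337 on the plus strand. The strand setting of the counting is not given in the sources used here. Reads of MAB21L1 and NBEA, of MAB21L2 and LRBA, and of PAX6 and its neighbours on the other strand may thus have been shared or lost where the genes overlap.

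The starts of OTX2, PAX6 and MAB21L1 are shown because these 3 factors differed between the arms in most comparisons below. These are the 250 bases before the RefSeq start in GRCh38.p14, 5′ to 3′ on the gene's strand: chr14:56810480-56810729 for OTX2, chr11:31817962-31818211 for PAX6 and chr13:35476690-35476939 for MAB21L1, all on the minus strand. In the deposited files MAB21L1 starts further upstream, at 35477209, so its window lies inside the gene as counted there. Capitals mark the homeodomain motifs TAATCC, which OTX2 binds, and TAATTA, searched on both strands.

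OTX2: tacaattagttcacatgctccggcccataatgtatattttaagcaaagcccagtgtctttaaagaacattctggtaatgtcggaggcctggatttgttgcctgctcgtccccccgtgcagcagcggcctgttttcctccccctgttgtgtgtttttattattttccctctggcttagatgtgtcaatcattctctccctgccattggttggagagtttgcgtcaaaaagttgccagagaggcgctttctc

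PAX6: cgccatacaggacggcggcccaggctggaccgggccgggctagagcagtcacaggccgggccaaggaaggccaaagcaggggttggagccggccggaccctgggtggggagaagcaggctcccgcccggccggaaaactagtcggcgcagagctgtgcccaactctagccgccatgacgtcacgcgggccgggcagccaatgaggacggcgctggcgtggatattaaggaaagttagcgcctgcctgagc

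MAB21L1: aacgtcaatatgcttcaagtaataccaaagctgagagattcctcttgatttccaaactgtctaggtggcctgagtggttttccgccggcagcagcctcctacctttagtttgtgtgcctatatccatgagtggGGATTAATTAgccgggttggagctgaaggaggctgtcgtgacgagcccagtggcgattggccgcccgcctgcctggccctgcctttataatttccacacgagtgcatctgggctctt

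Of these 3 windows only that of MAB21L1 held either motif, 1 of each, and the matches overlap. TAATCC was found in 5.62% and TAATTA in 4.35% of all 35116 promoter windows of this length. The E-box CACGTG, the motif of MITF, was in none of the windows of the members and in 6.34% of all windows. G and C made up 47.2% of the OTX2 window, 68.4% of the PAX6 window and 52.4% of the MAB21L1 window, where the median of all windows was 58%. RefSeq also lists a start of NBEA on the plus strand whose window, chr13:35476559-35476808, shares 119 bases with that of MAB21L1. A further RefSeq start of LRBA lies 2033 bases from the start of MAB21L2 in the files. MAB21L1 and MAB21L2 thus each have a listed start of their host gene nearby, on the opposite strand.

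Without drug, new RNA of all 5 factors rose within 60 min of release from mitosis, while new RNA of ELP4 and LRBA fell. OTX2 had 20.4, 15.1 and 7.28 CPM in the DMSO libraries at 0 min, 19.1, 23.5 and 15.2 CPM at 30 min and 61.6, 60.8, 56.3 and 62.7 CPM at 60 min. All 4 libraries at 60 min lay above every library at 0 and 30 min, and the change from 0 to 60 min was 2.01 ± 0.24 on the log2 scale (edgeR, adjusted p = 1.8e-07). At 90 min the DMSO libraries held 28.3, 30.3, 25.4 and 23.2 CPM and at 120 min 33.6, 30.8, 21.6 and 17.5 CPM, below all of those at 60 min.

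PAX6 was also highest at 60 min. Its DMSO libraries held 51.4, 49.3 and 50.9 CPM at 0 min, 116, 138, 102 and 137 CPM at 60 min and 46.7, 29.8, 31.6 and 41.6 CPM at 120 min. The 60 min libraries were the highest of the course, 1.29 ± 0.19 above 0 min (edgeR, adjusted p = 5.8e-06), and the 120 min libraries were at -0.42 ± 0.21, which did not pass (adjusted p = 0.13).

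MAB21L1 changed by 1.52 ± 0.32 at 60 min (edgeR, adjusted p = 0.00041) and by 1.54 ± 0.33 at 120 min (adjusted p = 0.00057), from 11.6, 10.1 and 14.6 CPM at 0 min to 40.8, 34.0, 43.3 and 25.3 CPM at 120 min. MAB21L2 rose by 0.78 ± 0.20 at 60 min (adjusted p = 0.0031) and by 1.10 ± 0.21 at 120 min (adjusted p = 0.00012). MITF rose by 0.60 ± 0.21 at 60 min (adjusted p = 0.026), 1.38 ± 0.22 at 90 min (adjusted p = 1.1e-05) and 1.16 ± 0.22 at 120 min (adjusted p = 9.8e-05). Its DMSO libraries went from 78.0, 78.4 and 74.6 CPM at 0 min to 171, 203, 205 and 222 CPM at 90 min.

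The long genes went the other way or did not pass. ELP4 held 48.9, 47.3 and 62.8 CPM at 0 min and 29.0, 26.5, 24.6 and 29.5 CPM at 60 min, a change of -0.94 ± 0.19 (edgeR, adjusted p = 0.0003) with no overlap. LRBA changed by -0.61 ± 0.21 (adjusted p = 0.022) and NBEA by -0.21 ± 0.21, which did not pass (adjusted p = 0.45). By 120 min none of the 3 differed from 0 min at the threshold, with changes of -0.18 ± 0.19 for ELP4, -0.43 ± 0.21 for LRBA and 0.05 ± 0.21 for NBEA. On all reads ELP4 and LRBA were called lower at 120 min, at -0.89 and -0.88 (edgeR, adjusted p = 0.0012 and 0.0064). Other calls were lost on all reads. At 60 min these were PAX6, MAB21L2 and MITF, at 0.49, 0.61 and 0.22 (edgeR, adjusted p = 0.075, 0.057 and 0.54). LRBA at 60 min was at -0.40 (edgeR, adjusted p = 0.20). At 120 min OTX2 and MITF lost theirs, at 0.33 and 0.59 (edgeR, adjusted p = 0.28 and 0.10).

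In counts, 5 of the 8 members rose and 2 fell at 60 min, when 35.9% of all 14206 genes tested were called, 22% higher and 13.9% lower. At 90 min 4 rose and none fell, beside 14.3% of all genes higher and 9.98% lower (24.3% in all). At 120 min 4 rose and none fell, beside 14.7% and 13.1% (27.8% in all). At 30 min edgeR called none of the 8 and 0% of all genes; none had an unadjusted p under 0.05, and DESeq2 also called 0. These comparisons share their 0 min libraries. Calls in DMSO were lost without the libraries of 1 replicate number for LRBA at 60 min (-0.51 without number 2 and -0.69 without number 4), for MITF at 60 min (0.49, 0.59 and 0.46 without numbers 2, 3 and 4) and for MAB21L2 without number 4 (0.59 at 60 min and 0.72 at 90 min). They were also lost for OTX2 at 90 min (0.80 and 0.54 without numbers 3 and 4) and at 120 min (0.68, 0.80 and 0.62 without numbers 1, 3 and 4), and for MAB21L1 at 90 min (0.59 without number 2). Scaled to all reads instead, the median change of all genes at 60 min was 0.62 in place of 0.02; OTX2, PAX6, MAB21L1, MAB21L2 and MITF stayed called there, and ELP4 and LRBA, at -0.36 and -0.03, did not.

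**Figure D1:**
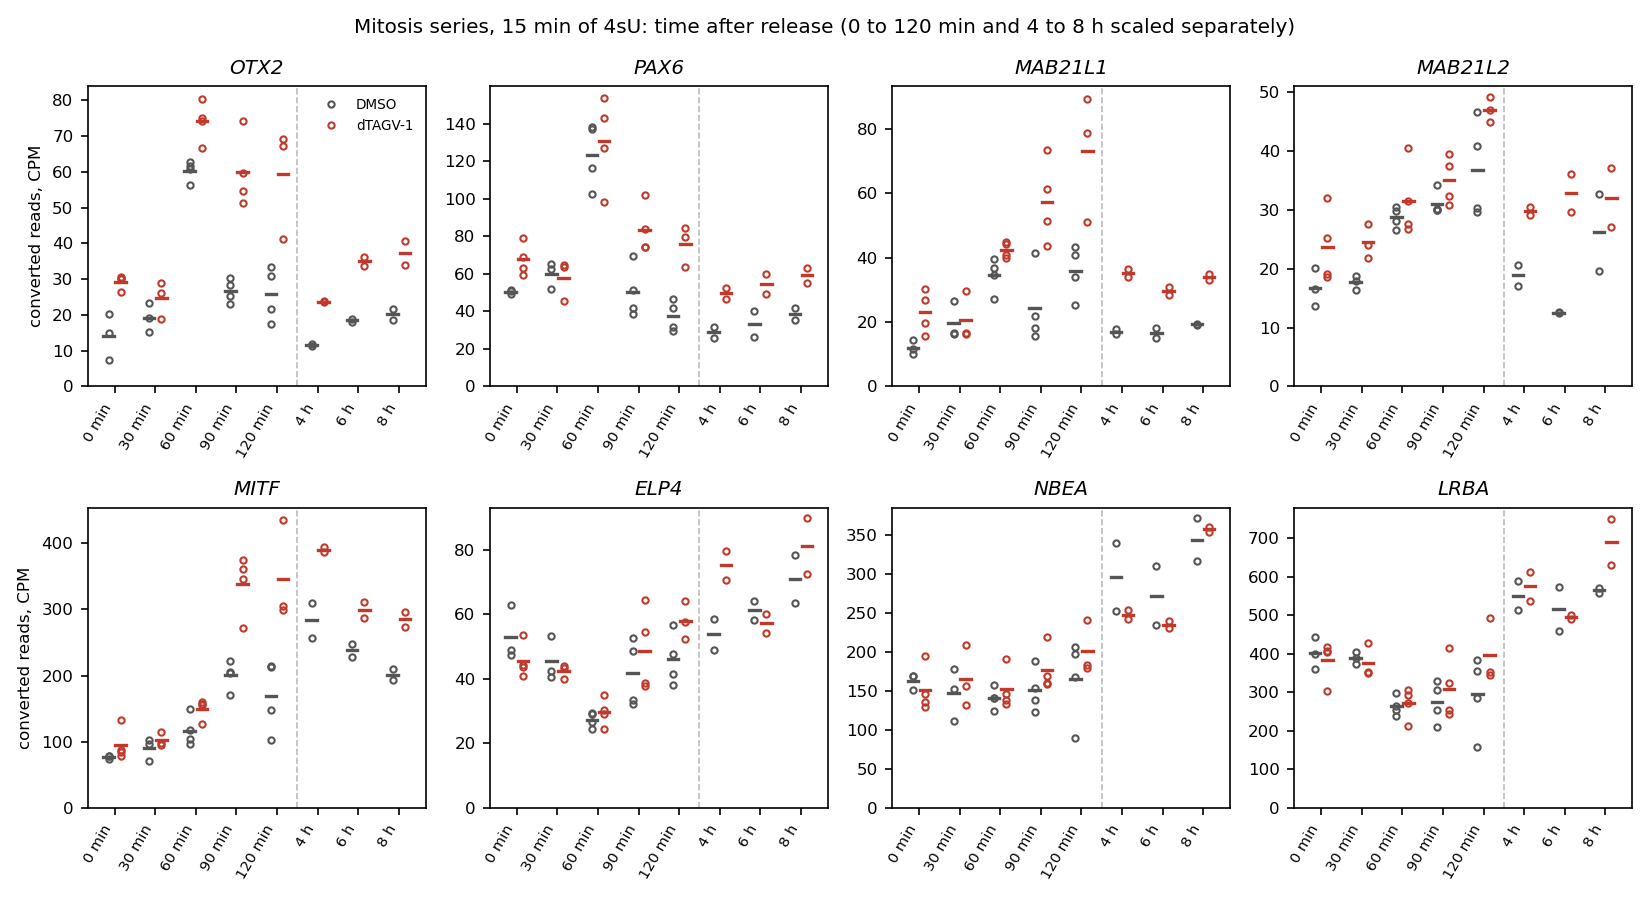
Converted reads per 1e6 (CPM) of each member in every library of the mitosis series with 15 min of 4sU, by time after release, in DMSO and dTAGV-1; circles are libraries and bars are means. In DMSO, OTX2 and PAX6 peaked at 60 min, at 56.3 to 62.7 CPM and 102 to 138 CPM, while ELP4 was lowest there, at 24.6 to 29.5 CPM; the scale of 0 to 120 min is not that of 4 to 8 h.

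From 4 to 8 h 2 of the 8 members changed in DMSO. From 4 to 8 h OTX2 rose by 0.79 ± 0.18 (edgeR, adjusted p = 0.0095), from 11.8 and 11.5 CPM to 21.7 and 18.7 CPM. MITF changed by -0.49 ± 0.13 (adjusted p = 0.016), with 6.6% of all 14570 genes called higher and 6.73% lower. Without replicate 1 or 2 MITF was at -0.69 and -0.27, with no test. Scaled to all reads it was at 0.11 and the median of all genes at 0.59. From 4 to 6 h edgeR called none of the 8, beside 1.12% of all genes; 2 had an unadjusted p under 0.05, and DESeq2 called 0. In the release series edgeR called none of the 8 members in DMSO at 60, 90 or 120 min against 30 min, beside 0.208%, 2.51% and 2.36% of all 13927 genes. At an unadjusted p under 0.05 there were 0, 1 and 1 members, and DESeq2 called 0 in each. With the replicate number as a block, which the correlations bear out at 120 min of that series, 1 member was called there, NBEA.

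In converted reads, all dTAGV-1 libraries of OTX2 lay above all DMSO libraries in 12 of the 14 RPE-1 comparisons at single times. In mitosis itself, at 0 min, the DMSO libraries held 20.4, 15.1 and 7.28 CPM and the dTAGV-1 libraries 30.7, 26.3, 30.3 and 30.0 CPM, a difference of 0.96 ± 0.25 on the log2 scale. The arms do not overlap, though the DMSO libraries rest on 8 to 42 reads. These were 0.922% to 2.43% of all OTX2 reads in DMSO, against 2.47% to 2.79% with dTAGV-1. Without the libraries numbered 2 the log2 difference at 0 min was 1.46, and without those numbered 4 it was 0.66. On all reads, which hold older RNA as well, the log2 difference at 0 min was 0.53. At 30 min the arms overlapped. At 60 min the dTAGV-1 libraries held 74.4, 80.4, 75.2 and 66.6 CPM, all above DMSO, by 0.29 ± 0.18. At 90 min dTAGV-1 libraries held 59.8, 74.4, 51.4 and 54.7 CPM against 28.3, 30.3, 25.4 and 23.2 CPM in DMSO, a difference of 1.15 ± 0.20. At 120 min they held 69.1, 67.4 and 41.4 CPM against 33.6, 30.8, 21.6 and 17.5 CPM, a difference of 1.17 ± 0.21. All dTAGV-1 libraries at these 2 times lay above all DMSO libraries.

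OTX2 was also higher with dTAGV-1 at 4 to 8 h. At 4 h the DMSO libraries held 11.8 and 11.5 CPM and the dTAGV-1 libraries 23.9 and 23.5 CPM. At 8 h they held 21.7 and 18.7 CPM and 40.7 and 34.0 CPM. The fitted difference was 1.02 ± 0.19 at 4 h, 0.92 ± 0.18 at 6 h and 0.88 ± 0.16 at 8 h. After 30 min in the release series the arms overlapped, at -0.18 ± 0.34. After 60 min dTAGV-1 libraries held 33.0, 29.3 and 60.2 CPM against 11.9, 18.6 and 22.6 CPM, a difference of 1.24 ± 0.29. After 120 min they held 49.1, 49.9 and 64.6 CPM against 27.6, 20.6 and 19.7 CPM, a difference of 1.29 ± 0.26. The dTAGV-1 libraries at 30 min rest on 8 to 40 reads of OTX2.

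The long label counted more reads of OTX2, 354 to 1656 per library. Its mitosis series had 43.2, 31.5 and 29.7 CPM in DMSO and 102, 63.7 and 65.5 CPM with dTAGV-1, and its release series 39.5, 34.0 and 37.2 CPM and 75.4, 62.9 and 108 CPM. The arms lay apart in both, by 1.15 ± 0.23 and 1.16 ± 0.23. The 2 comparisons in which the arms of OTX2 overlapped were those at 30 min. Among all genes the share with dTAGV-1 libraries all above DMSO ran from 0.76% at 60 min to 4.35% at 120 min of the mitosis series, and from 21.5% to 25.8% at 4 to 8 h, where each arm has 2 libraries. It was 2.82% to 6.15% in the release series, and 6.64% and 5.76% with the long label. In bulk RNA, more cells with a transcript and more transcript per cell cannot be told apart.

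PAX6 differed in the same direction. At 120 min of the mitosis series it held 46.7, 29.8, 31.6 and 41.6 CPM in DMSO and 63.4, 84.4 and 79.8 CPM with dTAGV-1, a difference of 1.00 ± 0.19. At 60 min the arms overlapped, at 0.08 ± 0.16. At 4, 6 and 8 h the differences were 0.78 ± 0.20, 0.71 ± 0.20 and 0.62 ± 0.18, and no library overlapped with the other arm. Its release-series values went from 0.17 ± 0.25 after 30 min to 0.61 ± 0.21 after 120 min. With the long label PAX6 had 67.1, 66.1 and 58.2 CPM against 140.2, 124 and 114 CPM in the mitosis series, and 36.6, 35.4 and 29.8 CPM against 46.9, 55.5 and 75.6 CPM in the release series. The dTAGV-1 libraries of PAX6 were all above DMSO in 10 of 14 RPE-1 comparisons. Beside this stand the shares of all genes given for OTX2, which were 21.5% to 25.8% at 4 to 8 h.

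MITF had its largest differences at 90 and 120 min of the mitosis series. At 90 min it had 171, 203, 205 and 222 CPM in DMSO and 271, 361, 346 and 374 CPM with dTAGV-1, and at 120 min 147, 213, 103 and 215 CPM and 299, 436 and 305 CPM. The differences were 0.76 ± 0.18 and 1.01 ± 0.20, with no overlap at either time. They were 0.46 ± 0.13, 0.33 ± 0.13 and 0.50 ± 0.13 at 4, 6 and 8 h. The average over the release series was 0.23 ± 0.08, and with the long label the arms overlapped in both series, at 0.38 ± 0.21 and 0.22 ± 0.21.

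MAB21L1, inside NBEA, had differences near those of OTX2. At 0 min it had 11.6, 10.1 and 14.6 CPM in DMSO and 19.8, 15.6, 30.3 and 26.8 CPM with dTAGV-1, from 10 to 57 reads per library. At 90 min it had 21.8, 41.4, 18.3 and 15.7 CPM and 73.4, 61.4, 51.4 and 43.8 CPM, and at 120 min 40.8, 34.0, 43.3 and 25.3 CPM and 89.5, 78.9 and 51.2 CPM. The arms do not overlap at any of these times, and the differences were 0.91 ± 0.33, 1.18 ± 0.25 and 1.06 ± 0.26. At 4 h the difference was 1.05 ± 0.18 and at 8 h 0.82 ± 0.16.

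After 60 min of drug in the release series MAB21L1 had 19.8, 14.5 and 16.2 CPM in DMSO and 40.0, 28.3 and 38.3 CPM with dTAGV-1, and after 120 min 23.7, 19.4 and 20.8 CPM and 57.5, 44.9 and 42.5 CPM. After 30 min the arms overlapped, at -0.01 ± 0.21. The long label gave 101, 62.4 and 76.7 CPM against 173, 147 and 182 CPM in the mitosis series and 71.8, 45.6 and 57.7 CPM against 144, 117 and 140.4 CPM in the release series. Like OTX2, MAB21L1 lay all above DMSO in 12 of 14 RPE-1 comparisons and overlapped only at 30 min in each series. The shares of all genes given for OTX2, 21.5% to 25.8% at 4 to 8 h, stand beside this count too.

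MAB21L2, inside LRBA, was less regular. Its differences in the mitosis series were 0.16 ± 0.17 at 90 min and 0.39 ± 0.18 at 120 min, with overlapping arms. At 6 h it had 12.6 and 12.5 CPM in DMSO and 36.1 and 29.5 CPM with dTAGV-1, a difference of 1.38 ± 0.25, while at 8 h the arms overlapped at 0.30 ± 0.22, or 0.93 without number 1 and -0.29 without number 2. After 120 min of drug in the release series it had 16.5, 14.3 and 13.5 CPM and 33.7, 28.1 and 43.0 CPM, a difference of 1.26 ± 0.32. With the long label the differences were 0.51 ± 0.17 in the mitosis series and 1.25 ± 0.17 in the release series, where libraries held 42.3, 27.8 and 37.4 CPM in DMSO and 77.2, 78.4 and 99.0 CPM with dTAGV-1. The arms lay apart in 7 of 14 RPE-1 comparisons, beside the shares of all genes given for OTX2, 21.5% to 25.8% at 4 to 8 h.

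**Figure D2:**
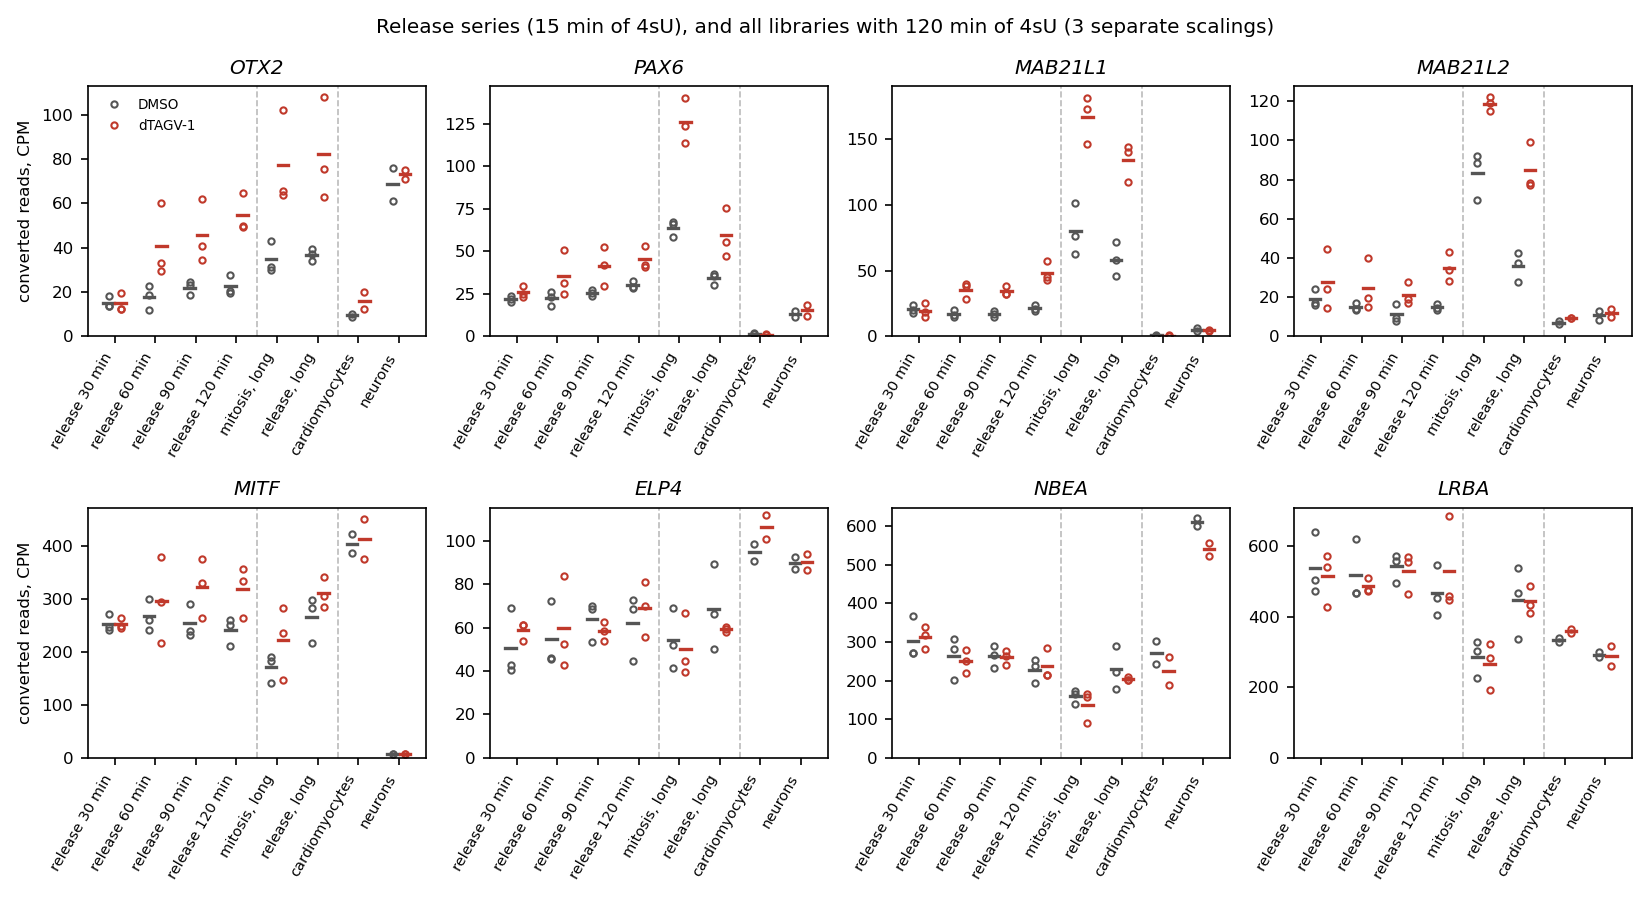
Converted reads per 1e6 (CPM) of each member in every library of the release series, of the long label and of the differentiated cells, in DMSO and dTAGV-1; circles are libraries and bars are means, and dashed lines part the separate scalings. After 120 min in drug OTX2 sat at 49.1 to 64.6 CPM against 19.7 to 27.6 CPM in DMSO, while NBEA, LRBA and ELP4 overlapped between the arms.

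The 3 long genes passed the threshold in no drug comparison. In the average over 4 to 8 h ELP4 was at 0.19 ± 0.09, NBEA at -0.14 ± 0.09 and LRBA at 0.10 ± 0.08. ELP4 was at -0.036 without number 1 and at 0.42 without number 2. Averages over the release series were 0.08 ± 0.12, 0.00 ± 0.08 and 0.00 ± 0.08. NBEA overlapped between the arms in all 14 RPE-1 comparisons, and ELP4 and LRBA in 13 of 14 each. NBEA had 178, 221 and 289.9 CPM in DMSO and 201, 200.4 and 209 CPM with dTAGV-1 in the long label of the release series. LRBA had 335, 468 and 537 CPM and 411, 434 and 488 CPM there, with 3872 to 15120 reads per library. LRBA lay apart at 8 h, by 0.29 ± 0.14, and ELP4 at 4 h, with 49.0 and 58.5 CPM in DMSO and 79.6 and 70.6 CPM with dTAGV-1. Each arm has 2 libraries there, and 25.8% of all genes lay all above DMSO at 8 h and 21.5% at 4 h. All 3 genes lay above 0 at 90 and 120 min of the mitosis series, by 0.17 to 0.41 with an SE of 0.17 to 0.21, and their arms overlapped. LRBA at 120 min, the largest of these, was at 0.21 without number 3, at 0.22 without the unlike DMSO library alone and at 0.65 without number 4.

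As a count, 4 members passed the threshold over all genes in the average over 30 to 120 min of the mitosis series (OTX2, MAB21L1, MITF and PAX6), all higher, beside 0.5% of 14206 genes called higher and 0.746% lower. Over 4 to 8 h 5 passed, these and MAB21L2, beside 9.07% higher and 10.7% lower of 14570 genes. OTX2, MAB21L1, PAX6 and MAB21L2 passed in the release series, beside 0.467% higher and 1.81% lower of 13927 genes. With the long label OTX2, PAX6 and MAB21L1 passed in the mitosis series, beside 0.41% higher and 2.05% lower of 16571 genes. In its release series these and MAB21L2 passed, beside 0.0724% higher and 0.646% lower. Since the members were picked on this contrast, the counts are a description.

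At single times of the mitosis series edgeR called none of the members at 0, 30 or 60 min and 0% of all genes; 4, 1 and 0 members had an unadjusted p under 0.05 and DESeq2 called 0 in each. It called 3 at 90 min (OTX2, PAX6 and MAB21L1), beside 0.366% of all genes, 0.0985% higher and 0.267% lower. It called these and MITF at 120 min, beside 0.95%, of which 0.331% were higher and 0.619% lower. At each of 4, 6 and 8 h it called 4, OTX2, PAX6 and MAB21L1 with MITF or, at 6 h, MAB21L2. All genes called were 5.39% at 4 h (1.89% higher and 3.5% lower), 7.09% at 6 h (2.37% and 4.72%) and 8.14% at 8 h (3.52% and 4.62%). For the release series it called none after 30 min, with 0% of all genes, no member at an unadjusted p under 0.05 and 0 by DESeq2. It called MAB21L1 after 60 and 90 min, beside 0.0933% and 0.632% of all genes, of which 0.00718% and 0.0287% were higher. After 120 min it called OTX2 and MAB21L1, beside 1.4%, of which 0.187% were higher. After 60 and 90 min of drug no member was called without number 1, 2 or 3, on all reads, or with all-read totals for scaling. After 120 min 1 was called without number 1, on all reads, or with all-read totals, and 0 without number 2.

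The counts rest on few libraries. At 90 min of the mitosis series 1 member was called without number 2, 3 or 4, and at 120 min 0 without number 2 and 2 without number 4; on all reads both counts were 0. Without the libraries numbered 4, 2 members were called in the average over 30 to 120 min. The release average held 2 without those numbered 2 or 3. The long label held 1 and 0 without numbers 1 and 2 in the mitosis series, and 2, 0 and 1 without numbers 1, 2 and 3 in the release series. The fitted difference of OTX2 ran from 0.71 to 0.80 over 30 to 120 min and from 0.68 to 0.99 in the release series when 1 replicate number was left out. In all reads, which hold older RNA as well, OTX2 differed by 0.52 and MAB21L1 by 0.53 over 30 to 120 min, and by 0.82 and 0.81 over 4 to 8 h.

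**Figure D3:**
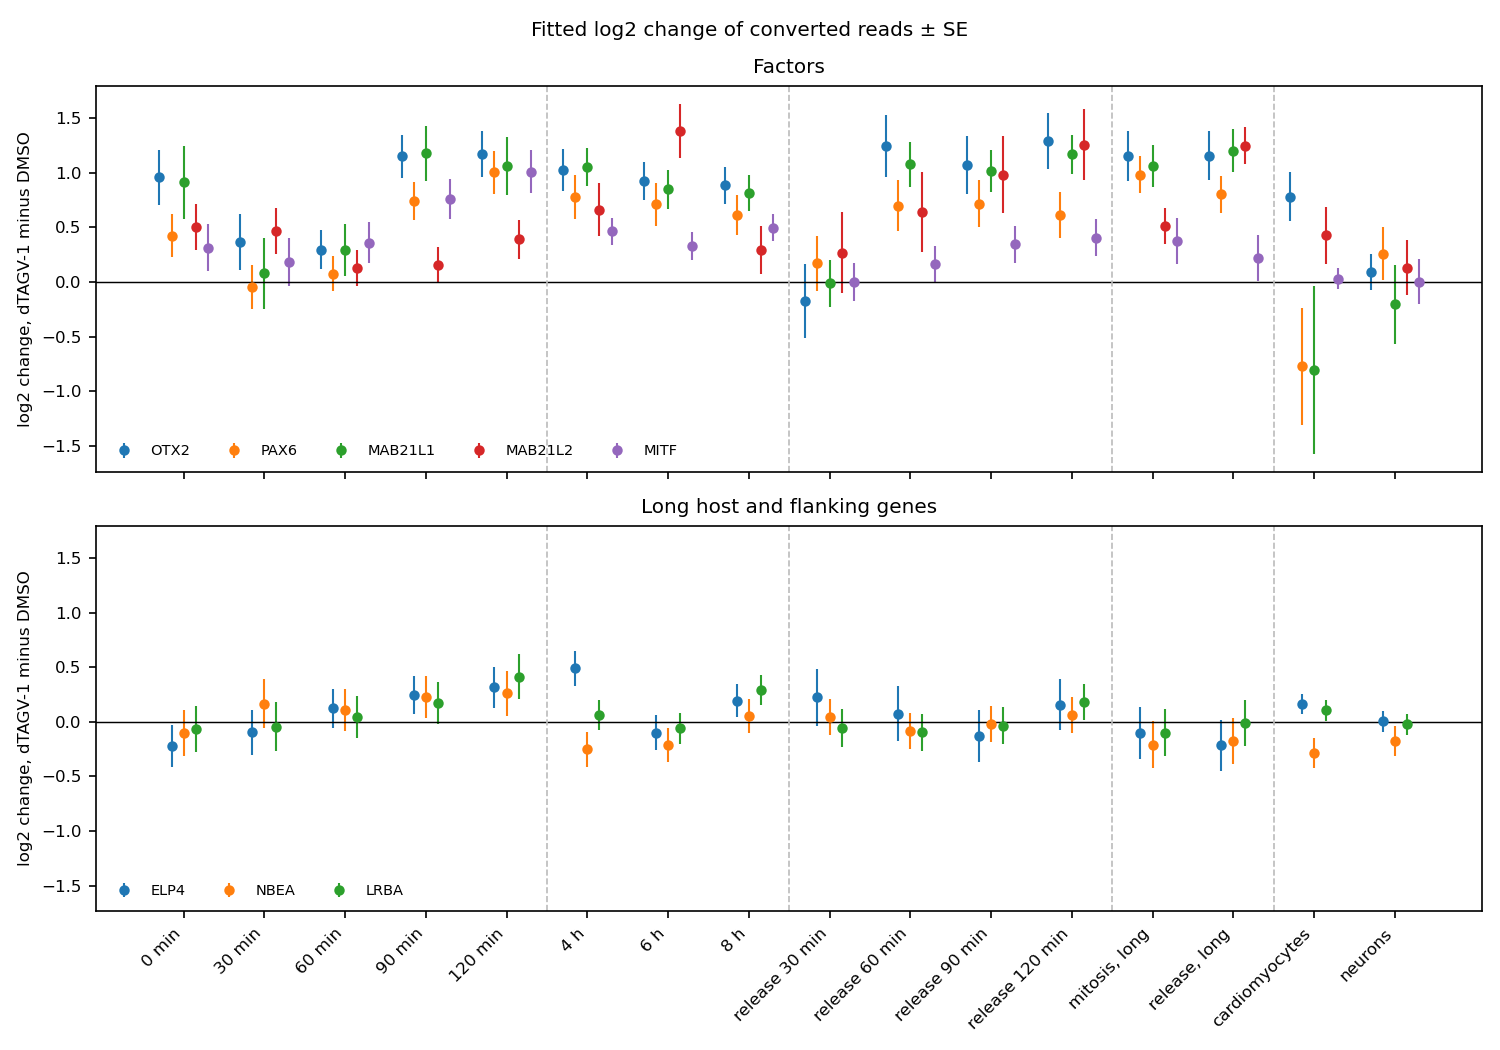
Fitted log2 change of converted reads, dTAGV-1 minus DMSO, with its standard error, for the 5 factors (top) and the 3 long genes (bottom) at each time, series and cell type. OTX2 and MAB21L1 lie near 1 from 90 min on and again from 60 min of drug in the release series, while the long genes lie lower in these RPE-1 comparisons; the points for PAX6 and MAB21L1 in cardiomyocytes rest on 13 reads or fewer per library.

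Each factor was also set against its long gene within the same library, which needs no scaling between libraries. The log2 ratio of converted reads compares a pair across libraries, not the levels of the 2 genes, which differ in length. In RPE-1 the ratio of MAB21L1 to NBEA was higher with dTAGV-1 by a median of 1.02 over 14 comparisons, and the arms lay apart in 9. At 4 h its mean was -2.81 with dTAGV-1 and -4.10 with DMSO, and in the long label of the mitosis series 0.33 and -1.01. The ratio of MAB21L2 to LRBA was higher by a median of 0.57, with the arms apart in 7 of 14, and that of PAX6 to ELP4 by a median of 0.53, with the arms apart in 6 of 14. These differences come from the contrast that chose the genes and carry no test. The share of other gene pairs with arms apart was not computed, so these counts have no background. For CPM of single genes, 21.5%, 24% and 25.8% of all genes lay all above DMSO at 4, 6 and 8 h, where each arm has 2 libraries.

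In DMSO the ratio of converted reads passed the test over time in the mitosis series for 1 pair of 3. The log2 ratio of MAB21L2 to LRBA averaged -4.50 ± 0.25 (SD, n = 6) at 0 and 30 min and -3.03 ± 0.64 (SD, n = 8) at 90 and 120 min. This difference of 1.47 had p = 0.0007, the smallest the design allows, by a two-sided exact permutation test, and an adjusted p of 0.004 over 6 such tests. Each n pools 2 times that carry the same replicate numbers. The test took all libraries as independent, so any tie between libraries of the same number was left out of account. Without the libraries numbered 2, 3 or 4 it was 1.43, 1.45 and 1.55, with an exact adjusted p of 0.057 each. That is the smallest adjusted p that groups so reduced allow for 1 pair alone. These runs therefore could not pass alone, and they do not decide whether the call holds. The adjusted p of this difference ran from 0.002 to 0.17 over the alternatives, some of which had fewer libraries still. The ratio of MAB21L1 to NBEA was 0.88 higher at 90 and 120 min, with p = 0.031 and an adjusted p of 0.092 by the same exact test, and did not pass. That of PAX6 to ELP4 differed by -0.19 (exact adjusted p = 0.61), though it stood at 2.16 ± 0.17 (SD, n = 4) at 60 min, a time that the test leaves out, against -0.06 ± 0.21 (SD, n = 3) at 0 min. On all reads the other pairs passed too, MAB21L1 to NBEA at 1.74 (exact adjusted p = 0.002) and PAX6 to ELP4 with the opposite sign, at 0.60 (exact adjusted p = 0.019). None of the 3 ratios in DMSO passed in the release series, with exact adjusted p of 0.40 to 0.82.

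**Figure D4:**
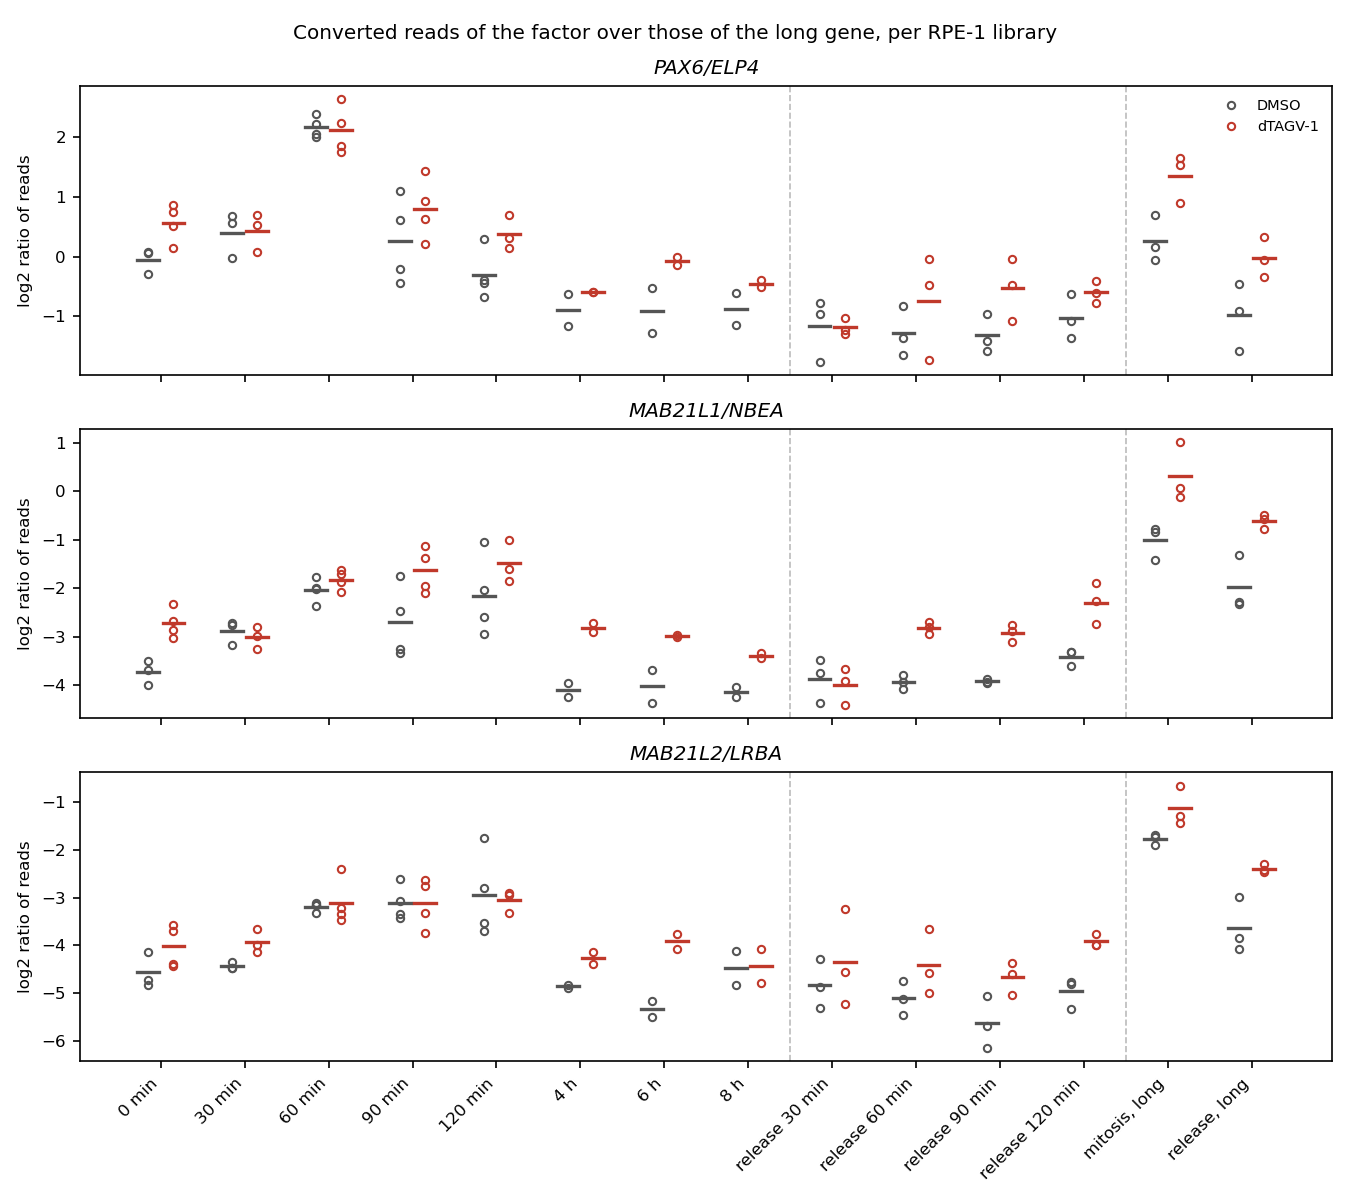
Log2 ratio of converted reads of each factor to those of its long gene in every RPE-1 library, by series and time, in DMSO and dTAGV-1; circles are libraries and bars are means. The DMSO libraries of PAX6 to ELP4 stand at 2.00 to 2.38 at 60 min of the mitosis series, above all other DMSO times with 15 min of 4sU, and MAB21L1 to NBEA is higher with dTAGV-1 from 4 h on and from 60 min in the release series.

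In DMSO libraries with 120 min of 4sU and 1 scaling, OTX2 was highest in neurons, with 51.0 and 63.7 CPM, against 33.0 to 48.6 CPM in the mitosis series of RPE-1, 39.6 to 43.6 CPM in its release series and 7.24 and 8.41 CPM in cardiomyocytes. The change from RPE-1 to neurons was 0.50 ± 0.21 (edgeR, adjusted p = 0.036) and that to cardiomyocytes -2.37 ± 0.26 (adjusted p = 7.9e-08). Without replicate 2 the neuron value was 0.26 and lost its call.

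PAX6, MAB21L1 and MAB21L2 were highest in RPE-1. PAX6 had 64.7 to 75.5 CPM in the mitosis series, 34.8 to 41.2 CPM in the release series, 9.27 and 12.2 CPM in neurons and 1.06 and 1.32 CPM in cardiomyocytes, in that order with no overlap. MAB21L1 had 69.8 to 114 CPM and 53.1 to 79.3 CPM in the 2 series of RPE-1, which overlap, then 3.42 and 4.98 CPM in neurons, and 2 and 11 reads in the cardiomyocyte libraries. MAB21L2 had 77.3 to 103 CPM and 32.3 to 46.7 CPM in these series, 7.08 and 10.8 CPM in neurons and 5.07 and 6.54 CPM in cardiomyocytes, and the last 2 types did not pass against each other (0.62 ± 0.26; edgeR, adjusted p = 0.073). Against RPE-1 the neurons were at -4.19 ± 0.28 for MAB21L1 (edgeR, adjusted p = 2.4e-11), -2.78 ± 0.22 for MAB21L2 (adjusted p = 2.9e-10) and -2.29 ± 0.21 for PAX6 (adjusted p = 4.3e-09). The cardiomyocytes were at -6.96 ± 0.36, -3.40 ± 0.23 and -5.46 ± 0.29 (adjusted p at most 2.5e-11).

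MITF was lowest in neurons. It stood at 325 and 352 CPM in cardiomyocytes, 239 to 348 CPM and 157 to 213 CPM in the release and mitosis series of RPE-1, and 5.00 and 5.79 CPM in neurons. The change from RPE-1 to neurons was -5.48 ± 0.28 (edgeR, adjusted p = 2.6e-13), and cardiomyocytes and the release series of RPE-1 overlap. The cardiomyocyte value of 0.48 ± 0.18 (adjusted p = 0.022) lost its call without replicate 1 or 2, at 0.45 and 0.61.

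Of the long genes NBEA, which is known for its role in neurons, was highest there, with 501 and 519.9 CPM against 153 to 338 CPM in RPE-1, a change of 1.24 ± 0.19 (edgeR, adjusted p = 5.0e-06). LRBA was lower in both, at -0.73 ± 0.20 (adjusted p = 0.0024) in neurons and -0.53 ± 0.19 (adjusted p = 0.02). The first lost its call without replicate 2, at -0.63, and the second without replicate 1 or 2, at -0.52 and -0.48. ELP4 passed against RPE-1 in neither, at 0.12 ± 0.20 and 0.20 ± 0.20 (adjusted p = 0.60 and 0.38). Scaled to all reads ELP4 was called higher in cardiomyocytes, at 0.59, where the median of all genes was 0.46 in place of 0.11. So 2 of the 8 members were higher and 5 lower in neurons than in RPE-1, beside 39.2% and 33.1% of all 21357 genes. In cardiomyocytes 1 was higher and 5 lower, beside 37.6% and 30.4%. Neurons were above cardiomyocytes for PAX6, OTX2, MAB21L1 and NBEA, by 3.17 ± 0.32, 2.87 ± 0.29, 2.76 ± 0.47 and 1.16 ± 0.24, and MITF was at -5.97 ± 0.30, beside 17.1% of all genes in each direction. NBEA lost that call without replicate 2, at 1.03. Where 1 library was left in a group, it was taken to vary like the others. Cell type, culture and the time in DMSO differ together here and cannot be told apart.

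**Figure D5:**
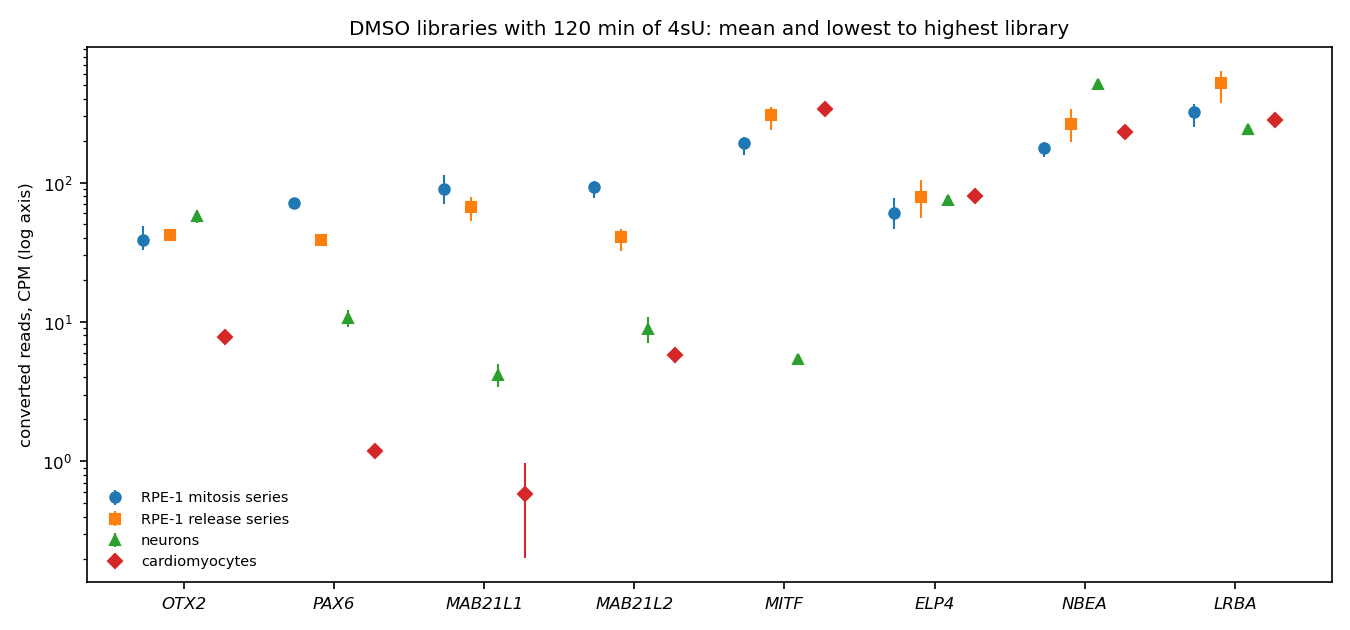
Converted reads per 1e6 (CPM, log axis) of each member in DMSO libraries with 120 min of 4sU, as the mean with a bar from the lowest to the highest library, in 1 scaling. MITF lies at 5.00 to 5.79 CPM in neurons and at 325 to 352 CPM in cardiomyocytes, MAB21L1 falls from over 53 CPM in RPE-1 to under 5 CPM in both other types, and the ranges of ELP4 overlap between the mitosis series of RPE-1 and both other types.

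The differentiated cells have 2 libraries an arm. In neurons, where OTX2 had 61.0 and 76.2 CPM in DMSO and 71.2 and 75.1 CPM with dTAGV-1, the arms overlapped at 0.09 ± 0.17. NBEA was the only member whose arms lay apart there, with 622 and 600.0 CPM and 558 and 524 CPM, as 23.3% of all genes did in that direction. In cardiomyocytes OTX2 had 8.68 and 10.00 CPM in DMSO and 12.2 and 19.8 CPM with dTAGV-1, a difference of 0.78 ± 0.22, from 82 to 147 reads, and of 0.50 without replicate 2. PAX6 went the other way there, at -0.77 ± 0.53, from 4 to 13 reads, and MAB21L1 at -0.80 ± 0.77 rests on 2 to 11 reads. The dTAGV-1 libraries of PAX6 lay all below DMSO in cardiomyocytes, as 20.4% of all genes did. Those of OTX2, MAB21L2, ELP4 and LRBA lay all above DMSO, as 21.9% of all genes did. MITF, with 2697 to 3989 reads per cardiomyocyte library, was at 0.03 ± 0.10. EdgeR called none of the 8 members in either cell type, beside 4.83% of 18645 genes in cardiomyocytes and 2.24% in neurons. In cardiomyocytes 1 member had an unadjusted p under 0.05, DESeq2 called 1, OTX2, and edgeR called 2 when genes with low counts were kept; in neurons all 3 counts were 0.

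Other genes of eye development did not all move with the members. Of 34 further eye field and optic cup transcription factors in the files, 13 passed the filter on low counts at 4 to 8 h. With dTAGV-1 2 of them rose and 3 fell, with a median change of 0.02, beside 0.01 over all genes, of which 9.07% were called higher and 10.7% lower. SIX3, a homeodomain factor of the eye field and forebrain, rose by 0.80 ± 0.12 (edgeR, adjusted p = 0.00011), while SIX4 fell by 1.13 ± 0.15 on the log2 scale (adjusted p = 3.5e-05). In the average of the release series 2 of 12 rose and none fell, beside 0.467% of all genes higher and 1.81% lower: SIX3 by 0.54 ± 0.10 (adjusted p = 0.0026) and MEIS2, a homeodomain factor of the TALE class, by 0.46 ± 0.09 (adjusted p = 0.0036). Over 30 to 120 min of the mitosis series, beside 0.5% of all genes higher and 0.746% lower, 1 of 14 passed, FOXC2, which fell by 0.77 ± 0.12 (adjusted p = 0.00024). With the long label none of 19 passed in either series. In cardiomyocytes 4 rose and 1 fell of 26, beside 1.18% of all genes higher and 3.65% lower. In neurons 2 of 26 fell, beside 1.66% of all genes lower: EYA2 by 0.97 ± 0.17 (adjusted p = 0.0099) and EYA4 by 0.67 ± 0.08 (adjusted p = 0.00074).

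Of 22 genes of the differentiated pigment epithelium and of melanin, among which MITF has known targets, only 7 passed the filter in RPE-1. At 4 to 8 h, with the same shares of all genes called, 2 of them rose and 1 fell. TRPM3, a cation channel gene, rose by 0.68 ± 0.16 (edgeR, adjusted p = 0.0047) and GPNMB, a melanosome glycoprotein, by 0.37 ± 0.09 (adjusted p = 0.0075). RAB27A, which moves melanosomes, fell by 0.48 ± 0.09 (adjusted p = 0.00083). None of the 7 passed in the other RPE-1 averages or with the long label. Among 18 relatives of the members, 14 were tested in RPE-1, and at 4 to 8 h 2 rose, beside the 9.07% of all genes: TFEC by 0.98 ± 0.18 (adjusted p = 0.00072) and TFE3 by 0.44 ± 0.12 (adjusted p = 0.013), both of the MITF family. None of the relatives passed in the other RPE-1 averages or with the long label.

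Genes near the members were mostly without a call. Of 46 genes that start within 500 kb of a member, 13 were tested over 30 to 120 min of the mitosis series and 1 rose, beside 0.5% of all genes. This was OTX2-AS1, which starts 2.7 kb from OTX2 on the other strand, by 0.83 ± 0.19 (edgeR, adjusted p = 0.016). At 4 to 8 h 4 of 13 rose and none fell, with a median of 0.19 beside 0.01 over all genes, of which 9.07% were called higher and 10.7% lower: OTX2-AS1 by 0.72 ± 0.16 (adjusted p = 0.0035), FAM160A1, 393.5 kb from the start of LRBA, by 0.71 ± 0.11 (adjusted p = 0.00018) and DCDC1, 139.9 kb from the start of ELP4, by 0.66 ± 0.22 (adjusted p = 0.04) were the 3 with the largest change. Within 250 kb 2 of 8 rose. In the release average none of 15 passed, and with the long label none of 17 in either series. Neighbours on opposite strands share the doubt over strand given above.

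Among 10445 genes, those most like OTX2 over the 24 RPE-1 group means with 15 min of 4sU were MAB21L1 (Pearson r = 0.863), KBTBD8 and MLLT11 (0.856 and 0.853). PAX6 was most like FAM104A (0.916), TRIM36 and MAP3K8 (0.915 and 0.911), and correlated at 0.700 with OTX2. MAB21L2 was most like SIX3 (0.814), then MAB21L1 (0.785). Between a factor and its long gene r was -0.53 for PAX6 and ELP4, -0.03 for MAB21L1 and NBEA and -0.21 for MAB21L2 and LRBA. These are descriptions over groups that share libraries of 1 clone, drug arms and 1 scaling. The group means hold DMSO and dTAGV-1 alike, and the members were named with that contrast in view. A correlation between members, such as OTX2 with MAB21L1, may therefore follow in part from how they were chosen, and it carries no test.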

How the data were processed

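Counts of converted and of all reads per gene were used as deposited; the submitters' processing notes name HISAT, Picard, HTSeq and hg38, without versions or roles, and the strand setting is not given in the sources used here. The members, gene lists and tests were chosen with earlier results of these data known. Of 49186 named genes 281 of chromosome Y and the X inactivation centre were left out. Starts in the files are counted from 0 and were raised by 1. Converted counts were fitted with edgeR 4.0.16 in R 4.3.3 (quasi-likelihood test, TMM, at least 10 reads in the smallest group and 15 in all, Benjamini-Hochberg adjusted p under 0.05), in 6 fits by series and label. Ratios used a pseudocount of 0.5 reads and exact permutation tests. The fits were tested on simulated data. Named genes of a list were those called with the largest change. Alternatives were DESeq2 1.42.0, no filter, all reads as the measure, all-read totals for scaling, the replicate number as a block, and leaving out each number. Same-numbered libraries deviated together at 0 min (correlations 0.194 to 0.563), in the release series at 120 min (0.258 to 0.436) and in the long label of the mitosis series (0.154 to 0.706), so that numbers pair libraries there, as the data show.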

Additional observations from a re-analysis of the deposited data

Results flagged for a closer look

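In 5 of 48 groups of 4 libraries 1 library stood apart from the others by Dixon's test at the 95% level, which chance gives in about 1 of 20 groups. At 0 min with dTAGV-1 these were replicate 4 for LRBA (304.5 CPM), replicate 3 for MITF (132.5 CPM, the highest) and replicate 2 for OTX2 (26.28 CPM, the lowest). At 90 min they were replicate 2 of DMSO for MAB21L2 (34.15 CPM) and replicate 3 of dTAGV-1 for NBEA (219 CPM). PAX6 in cardiomyocytes was at -0.77 with both dTAGV-1 libraries below DMSO, from 4 to 13 reads, while all long-label libraries of RPE-1 with dTAGV-1 lay above DMSO in each series. Of all genes 20.4% lay all below DMSO in cardiomyocytes. In the mitosis and release series of the long label 6.64% and 5.76% lay all above. The difference of PAX6 between cell types was not tested.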

How the results depend on the processing

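Counted on all reads, 1 member was called in the drug comparison over 30 to 120 min of the mitosis series and 1 in each series of the long label, 3 in DMSO at 60 min, and 8 in neurons against cardiomyocytes. NBEA in DMSO at 120 min was then at -0.68, ELP4 in neurons at -0.044, and the ratios of PAX6 to ELP4, with its sign turned, and of MAB21L1 to NBEA passed at 0.60 and 1.74. Scaled to all-read totals 2 were called in the long label of the release series, 7 in DMSO at 8 h and 3 in DMSO at 120 min of the release series; NBEA at 60 min was at 0.36, ELP4 at 120 min at 0.19 and MITF at 8 h at 0.11. DESeq2 and the replicate block each called 2, 2 and 3 members in the release series after 60, 90 and 120 min of drug, where edgeR called 1, 1 and 2. In cardiomyocytes DESeq2 called 1 and edgeR without a filter 2. With the replicate block 1 member was called in DMSO at 120 min of the release series and 3 in the long label of that series. The ratio of MAB21L2 to LRBA at 120 min against 0 min alone differed by 1.62. Leaving out 1 replicate number, or DMSO replicate 3 of 120 min, gave 2 to 4 called over 30 to 120 min, 4 to 7 in DMSO at 60 min, 2 to 5 in DMSO at 90 min, 2 to 3 in the release average, and 0 to 2 in each series of the long label. It gave -0.12 to 0.21 for NBEA at 120 min, -0.031 to 0.25 for ELP4 in neurons, -0.071 to 0.22 for NBEA in cardiomyocytes, 1.43 to 1.55 for the ratio of MAB21L2 to LRBA, and -0.43 to 0.035 and, in the release series, -0.11 to 0.23 for that of PAX6 to ELP4. At 4 to 8 h and in the differentiated cells alone this leaves no residual degrees of freedom, and only values were taken.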
